A study of Mus musculus with 24 samples.

Results

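The genes described here code for dual-specificity phosphatases that act on mitogen-activated protein (MAP) kinases, namely *Dusp1*, *Dusp3*, *Dusp4*, *Dusp5*, *Dusp6*, *Dusp7*, *Dusp8*, *Dusp10*, *Dusp14* and *Dusp16*. Every probe outside the control spots whose transcript accession belongs to one of these 10 genes was taken, which gave 12 of the 56605 unique probes of the microarray, and 10 of its 23787 named genes. *Dusp8* and *Dusp14* have 2 probes each, called the brighter and the dimmer probe below, and the other genes have 1. The RNA came from the whole hippocampus of 48 single-housed male Swiss-Webster mice, with 1 mouse per sample and no pooling. The labels give an age of 12 weeks, and the methods add several weeks of habituation to single cages before the treatment, so that the mice may have been older when the RNA was collected. Through the 12 h dark phase, 24 mice drank corticosterone (100 µg/ml) dissolved with 0.45% hydroxypropyl-β-cyclodextrin, and 24 control mice, siblings of the treated ones, drank the same vehicle alone. Brains were collected during the first, the fifth or the ninth hour of the following light phase, from 8 control and 8 corticosterone-treated mice per hour. The design asks how the hippocampal response to a night of raised glucocorticoids decays over the resting period.

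A MAP kinase is active while a threonine and a tyrosine in its activation loop both carry phosphate, and a dual-specificity phosphatase removes both phosphates. Several of these phosphatases are induced by the kinases that they switch off and so form negative feedback loops, and *Dusp1* is a classical target gene of the glucocorticoid receptor. In the hippocampus the ERK branch of the MAP kinases takes part in synaptic plasticity, while the JNK and p38 branches respond to stress and cytokines.

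Upstream sequences are shown for *Dusp1*, *Dusp5* and *Dusp14*, and for *Dusp8*, which has a motif in common with *Dusp1*. The first 3 were called lower at the ninth than at the first hour in corticosterone-treated mice, *Dusp14* by its brighter probe alone. The sequences come from RefSeq (build GRCm38.p6), where promoters of 9 of the 10 members were found. *Dusp4* was not matched. Each line gives the 250 bases before the transcription start, 5′ to 3′ on the strand of the gene, and capitals mark matches to the motifs searched. These were TGACGTCA (the cAMP response element), TGANTCA (the AP-1 site), AGAACA (the short glucocorticoid receptor motif), the glucocorticoid receptor palindrome (which contains AGAACA) and the CArG box of serum response factor, on both strands.
Dusp1, chr17:26508473-26508722, minus strand: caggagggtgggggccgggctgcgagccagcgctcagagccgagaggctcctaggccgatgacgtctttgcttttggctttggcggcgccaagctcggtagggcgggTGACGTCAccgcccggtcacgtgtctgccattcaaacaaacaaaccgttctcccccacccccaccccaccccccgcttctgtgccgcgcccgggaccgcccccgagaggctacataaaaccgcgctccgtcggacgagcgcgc
Dusp5, chr19:53528895-53529144, plus strand: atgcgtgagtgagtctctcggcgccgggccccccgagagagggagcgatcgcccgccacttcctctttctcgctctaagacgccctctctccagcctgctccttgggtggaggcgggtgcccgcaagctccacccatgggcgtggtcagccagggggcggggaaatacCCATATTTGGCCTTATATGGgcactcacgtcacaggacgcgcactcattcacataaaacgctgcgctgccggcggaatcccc
Dusp8, chr7:142095285-142095534, minus strand: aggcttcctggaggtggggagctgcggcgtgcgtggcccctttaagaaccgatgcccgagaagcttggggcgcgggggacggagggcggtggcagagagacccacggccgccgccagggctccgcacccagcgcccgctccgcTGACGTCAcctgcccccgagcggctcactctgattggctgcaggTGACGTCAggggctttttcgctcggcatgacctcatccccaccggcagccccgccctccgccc
Dusp14, chr11:84068358-84068607, minus strand: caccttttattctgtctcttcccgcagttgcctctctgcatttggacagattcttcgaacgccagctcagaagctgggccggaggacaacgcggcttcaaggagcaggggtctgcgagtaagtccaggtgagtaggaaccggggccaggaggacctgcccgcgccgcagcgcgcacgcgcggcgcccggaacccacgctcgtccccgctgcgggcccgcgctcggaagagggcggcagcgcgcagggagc
The cAMP response element stands 1 time in the *Dusp1* window, 143 bases before the start, and 2 times in the *Dusp8* window, with the nearer copy 63 bases before it. At least 1 copy is found in 1.55% of the 32851 promoters of the same length, and 2 or more copies in 0.0304%. The *Dusp5* window holds 2 CArG boxes, 82 and 72 bases before the start. Of all promoters 1.47% hold at least 1, and 0.0183% hold 2 or more. The window of *Dusp14* has no match to any of the motifs. The AP-1 letters (6.75% of all promoters), AGAACA (16.1%) and the palindrome (0.0304%) were found in 0 of the 9 members' windows. G and C made up 68.4% of the *Dusp1*, 64.0% of the *Dusp5*, 71.6% of the *Dusp8* and 67.6% of the *Dusp14* window. The median over all promoters was 52.4%, and the shares over all promoters are not matched for this. The matches describe these letters in this window and nothing more.

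On each of the 24 arrays Cy3 marked the RNA of a control mouse and Cy5 that of a treated one, without a dye swap. If Cy5 and Cy3 differ at a probe on every array, that therefore cannot be told apart from an effect of corticosterone. Such a dye difference cancels in the change of the effect between hours, and it does not enter comparisons between hours within a treatment. Spots well above background made up 60.8 to 67.2% of a control channel and 64.0 to 73.5% of a corticosterone channel. All 6 neuronal and all 5 hippocampal subfield markers were well above background on all 48 channels, and so were 3 of 5 choroid plexus and 4 of 6 neighbouring-region markers, at summed intensities of 824 to 2655 and 793 to 1407. The choroid plexus gene *Kcne2* was above background on 0 channels and *Folr1* on 39, and of the neighbouring regions *Drd2* was so on 9 and *Avp* on 35. At the first hour, 2 of 5 subfield and 1 of 6 neighbouring-region markers were called higher and 1 of 6 neuronal markers lower. In the same comparison, 3 of 6 endothelial and mural markers were called lower and 1 higher, and their summed intensity was 7662 to 10109 in treated and 10583 to 13215 in control mice. Of 5 microglial markers 3 were called lower, with sums of 11581 to 15567 in treated and 13549 to 15937 in control mice. Of 5 oligodendrocyte markers 2 were called higher and 2 lower at each hour, and of 5 astrocyte markers 1 and 1. In treated mice, 3.93% of all probes were called between the ninth and the first hour. There 2 of 5 microglial and 2 of 6 endothelial and mural markers were called higher, and of 5 subfield markers 1 was called higher and 2 lower. For the change of the effect between these hours 0.829% of all probes were called. Of 6 endothelial and mural markers 2 were called higher in it, with a median of 0.25 over the list, and 0 of the other markers were called. No marker was listed at an intensity of 0. The part of these shifts in the results was not tested, and in whole tissue fewer cells of a type and less RNA per cell cannot be told apart.

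At the first hour, the treatments differed significantly for 5 of the 12 probes, against 17.5% of all probes. *Dusp5*, both *Dusp14* probes and the dimmer *Dusp8* probe were higher in treated mice, and *Dusp7* was lower. At the fifth hour 2 of 12 probes were significant, against 18.1% of all probes, which is close to the background. By the ninth hour, limma called 0 of 12 against 13.9% of all probes. At an unadjusted p under 0.05 there were 7, 3 and 4 of the 12 probes at the 3 hours. Here and below, shares of all probes are at the adjusted threshold, so they are no background for counts at an unadjusted p. The median log2 fold change over the 10 genes, each by its brightest probe, was 0.06, 0.07 and 0.05 in time order, and that over all probes was 0.00 or -0.00.

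**Figure D1:**
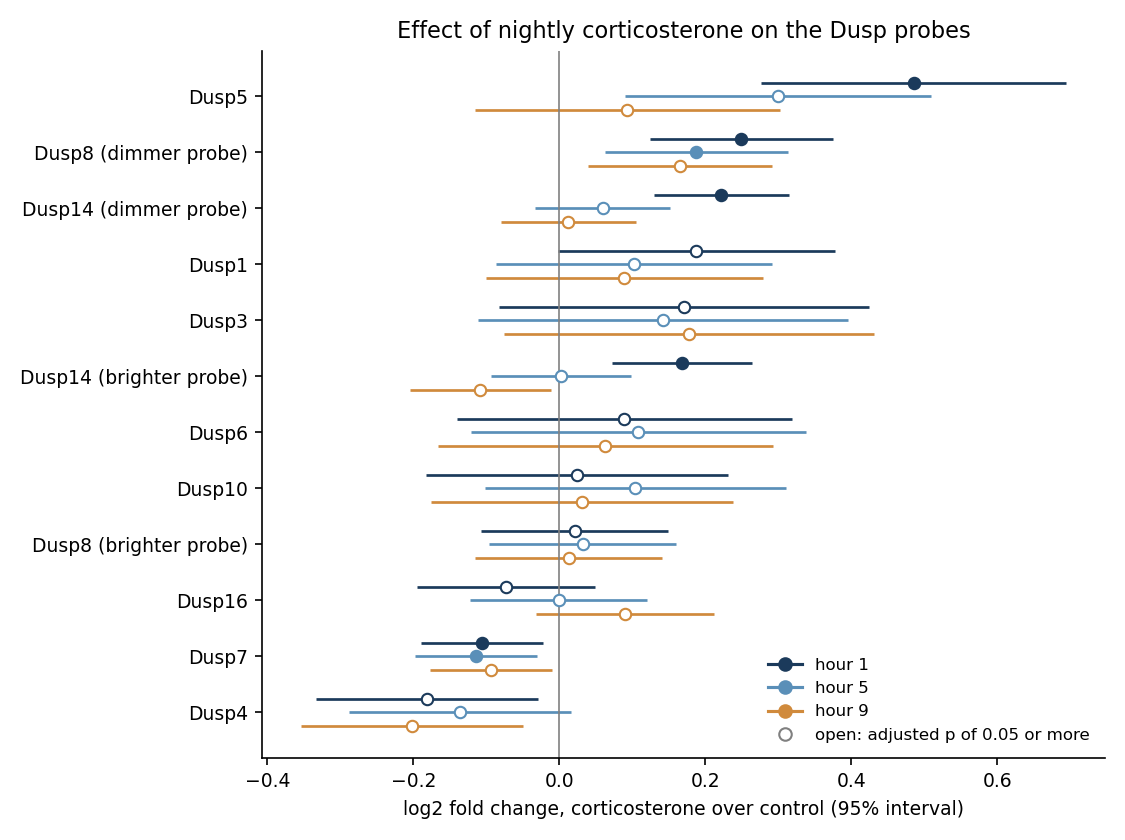
Log2 fold change of corticosterone-treated over control mice (horizontal axis) with its 95% interval for the 12 probes at each hour, from 8 mice per group. Filled points have an adjusted p under 0.05; at the first hour these are Dusp5, the dimmer Dusp8 probe, both Dusp14 probes and Dusp7, and at the fifth hour the dimmer Dusp8 probe and Dusp7.

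Of the inducible nuclear phosphatases, *Dusp5*, which is specific for ERK, was higher in treated mice at the first hour. Its normalised intensity (lowest, median and highest of 8 mice) was 29.6, 35.2 and 53.6 in control and 40.3, 48.0 and 72.2 in treated mice. The treated mouse had the higher value on 8 of 8 arrays, and the groups overlapped because 1 control mouse stood above the other 7. The log2 fold change was 0.49 ± 0.104 (SE), or 1.40-fold, with an adjusted p of 0.00068, and within slides 1, 2 and 3 the mean log2 ratio was 0.78, 0.39 and 0.38. The signal was weak: the probe was well above background in 8 of 8 treated but in 3 of 8 control mice, so that the size of the fold change is uncertain. It was 0.21 with offset 50 for fold changes, 0.22 with the authors' log2 ratios, 0.24 with no background correction and 0.72 with processed signals. In the fifth hour the values were 21.6, 31.1 and 37.4 in control and 31.8, 37.4 and 43.7 in treated mice, and 4 of 8 treated mice exceeded all controls. The log2 fold change of 0.30 ± 0.104 missed the threshold (adjusted p = 0.0839), but passed it when p-values were computed with no offset (0.0389) and with processed signals (0.0298). Only 1 of 8 control mice was well above background there, and the log2 fold change ran from 0.10 to 0.59 over 17 alternatives. By the ninth hour the medians were 35.9 and 37.4, the ranges nearly coincided, and the log2 fold change was 0.09 (adjusted p = 0.69).

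*Dusp1*, the immediate-early phosphatase of p38, JNK and ERK, did not pass the threshold for the corticosterone effect at any hour. At the first hour it had 1146, 1342 and 1779 in control and 1113, 1672 and 2047 in treated mice. The treated mice were widely spread, with 4 of 8 above every control mouse and 1 below every control mouse. For the first hour the log2 fold change was 0.19 ± 0.0941 (adjusted p = 0.144), and it was 0.10 and 0.09 at the fifth and ninth hour (adjusted p = 0.473 and 0.569). *Dusp4*, a nuclear phosphatase of ERK and JNK, had log2 fold changes of -0.18, -0.14 and -0.20 at the 3 hours (adjusted p = 0.0778, 0.199 and 0.0599). At the ninth hour it had 219, 231 and 251 in control and 171, 193 and 241 in treated mice. There, 5 of 8 treated mice lay below every control mouse. The mean log2 ratio within slides 1, 2 and 3 was 0.07, -0.02 and -0.51 at the first hour and -0.30, -0.00 and -0.21 at the ninth. The ninth-hour difference was significant in 5 of 18 alternatives, with adjusted p from 0.0208 to 0.62. That of the first hour was significant in 1 of 18, without slide 1 (-0.26, adjusted p = 0.0367), and its highest adjusted p was 0.958.

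The cytoplasmic phosphatases of ERK are *Dusp6* and *Dusp7*. *Dusp7* had 7384, 7876 and 8421 in control and 6837, 7413 and 7746 in treated mice at the first hour. The treated mouse had the lower value on 8 of 8 arrays, and 4 of 8 treated mice were below every control mouse. This was a log2 fold change of -0.11 ± 0.0414, a change of -7.07%, with an adjusted p of 0.0432 and slide means of -0.17, -0.06 and -0.11. It was -0.11 at the fifth hour (adjusted p = 0.0271; slide means -0.27, -0.04 and -0.08) and -0.09 at the ninth (adjusted p = 0.0873). The estimates were of similar size, and the change between the first and the last time point was 0.01, with a 95% interval of -0.11 to 0.13. This interval includes changes as large as the effect itself, so whether the effect was kept was not settled. These small differences lost significance without slide 1 or slide 3 at either hour, and also without slide 2 or with offset 0 for p-values at the first hour and with the arrays of that hour alone at the fifth.

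*Dusp6*, the feedback phosphatase that ERK signalling induces, had log2 fold changes of 0.09, 0.11 and 0.06 at the 3 hours (adjusted p = 0.621, 0.534 and 0.758). Its values were 3114, 3872 and 4570 in control and 3352, 4203 and 4697 in treated mice at the first hour, with the ranges overlapping almost throughout. At the fifth hour 1 array was low in both channels, with 1491 in the control and 1520 in the treated mouse, whereas the next lowest mice had 3014 and 3258. The same array was low for *Dusp3*, as described below.

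Of the phosphatases of JNK and p38, *Dusp8* gave different results with its 2 probes. At the first hour the dimmer probe had 5054, 5524 and 5878 in control and 4649, 6784 and 7656 in treated mice. Here 7 of 8 treated mice were above every control mouse and the remaining one was below every control mouse. The log2 fold change was 0.25 ± 0.0624 (adjusted p = 0.00227), with slide means of 0.31, 0.28 and 0.17. The brighter probe had 6225, 6542 and 6888 in control and 4456, 7040 and 7558 in treated mice. With this probe 5 of 8 treated mice exceeded every control mouse, the same treated mouse was again the lowest, and the log2 fold change was 0.02 ± 0.0635 (adjusted p = 0.856). The spots of the probes lie 132 rows apart on the array. The array of that mouse had the highest median Cy5 intensity of all arrays, 185, and the highest share of Cy5 spots well above background, 73.5%. Whether this bears on the low values was not tested. Without the array of that mouse, an alternative added after the data had been seen, the log2 fold change was 0.32 for the dimmer probe (adjusted p = 2.19e-05) and 0.11 for the brighter one (adjusted p = 0.13). Without slide 2 the call of the dimmer probe was lost (adjusted p = 0.0729).

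In the fifth hour the dimmer *Dusp8* probe had 5204, 5877 and 7202 in control and 6181, 6759 and 8013 in treated mice. The treated mouse was higher on 7 of 8 arrays, although 1 control mouse was brighter than all but 1 treated mouse. With this probe the log2 fold change was 0.19 ± 0.0624 (adjusted p = 0.0213), with slide means of 0.18, 0.05 and 0.34, and the call was lost without slide 1 or slide 3. At the ninth hour it had 0.16 (adjusted p = 0.0529), and the brighter probe had 0.03 and 0.01 at these hours (adjusted p = 0.765 and 0.919).

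*Dusp10* and *Dusp16*, which also act on JNK and p38, displayed no significant effect of corticosterone. *Dusp16* had log2 fold changes of -0.07, -0.00 and 0.09 at the 3 hours (adjusted p = 0.401, 0.987 and 0.33). *Dusp10* was a dim probe with 50.9, 74.3 and 95.4 in control and 52.9, 77.7 and 97.3 in treated mice at the first hour. Its ranges coincided, and its log2 fold changes were 0.02, 0.10 and 0.03 (adjusted p = 0.901, 0.536 and 0.856).

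*Dusp3* and *Dusp14* are small phosphatases that lack the kinase-binding domain of the classical members. *Dusp14* was higher in treated mice at the first hour with both probes. The brighter probe had 3949, 4368 and 5300 in control and 4184, 5035 and 6011 in treated mice, and the dimmer one had 967, 1085 and 1230 against 1143, 1270 and 1321. Treated mice were higher on 7 of 8 arrays with either probe, and with the dimmer probe 6 of 8 exceeded every control mouse. The log2 fold change was 0.17 ± 0.0478 for the brighter probe (adjusted p = 0.00613; slide means 0.31, 0.05 and 0.19) and 0.22 ± 0.0459 for the dimmer one (adjusted p = 0.000213; slide means 0.27, 0.11 and 0.30). The brighter probe lost its call without slide 1, without slide 3 or with the arrays of that hour alone. The log2 fold changes at the fifth hour were 0.00 and 0.06 (adjusted p = 0.985 and 0.352), with medians of 4641 in control and 4666 in treated mice for the brighter probe. At the ninth hour the brighter probe had 4250, 4777 and 5292 in control and 4228, 4414 and 4595 in treated mice. The treated mouse was then the higher one on 1 of 8 arrays, and the log2 fold change was -0.11 (adjusted p = 0.0939), while that of the dimmer probe was 0.01 (adjusted p = 0.893).

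*Dusp3* was higher in the treated mouse on 8 of 8 arrays at each hour and yet was not called. At the first hour it had 9553, 10142 and 10712 in control and 10356, 11627 and 12088 in treated mice. At the ninth hour it had 9772, 10125 and 10429 against 10953, 11294 and 12413, so that the groups did not overlap. The log2 fold changes were 0.17, 0.14 and 0.18 at the 3 hours, each ± 0.126, with adjusted p of 0.346, 0.447 and 0.347. The spread behind this error included 1 array of the fifth hour with 3442 in the control and 3751 in the treated mouse, whereas the next lowest mice had 9970 and 10149. On that array, the spots of *Dusp3* and *Dusp6* lie in the same row, 3 columns apart. Of 241 neighbouring spots within 10 rows and columns, 32.4% in the control and 40.2% in the corticosterone channel were more than 0.5 below the median of their probe on the log2 scale. Around the same position on the other 23 arrays these shares were 0 to 9.54% and 0.415 to 8.71%. Over the rest of the low array the shares were 9.60% and 10.9%, above the highest of the other arrays (3.03% and 6.26%), and it also had the most outlier spots, 276, and the lowest share of Cy5 spots well above background, 64.0%.

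Without that array, which was left out after the data had been seen, *Dusp3* was significantly higher at the 3 hours (log2 fold change 0.17, 0.14 and 0.18, adjusted p = 0.000362, 0.00549 and 0.000346). It also passed when the array was the block, that is on the log ratios of co-hybridised mice (adjusted p = 0.000891, 0.00451 and 0.000925). The slide means were 0.21, 0.18 and 0.13 at the first hour and 0.17, 0.15 and 0.23 at the ninth. For *Dusp3*, with a similar ratio at each hour, a constant dye difference and an effect of corticosterone cannot be told apart. Without the same array the fifth-hour calls of *Dusp7* and of the dimmer *Dusp8* probe were lost (adjusted p = 0.0502 and 0.0778).

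**Figure D2:**
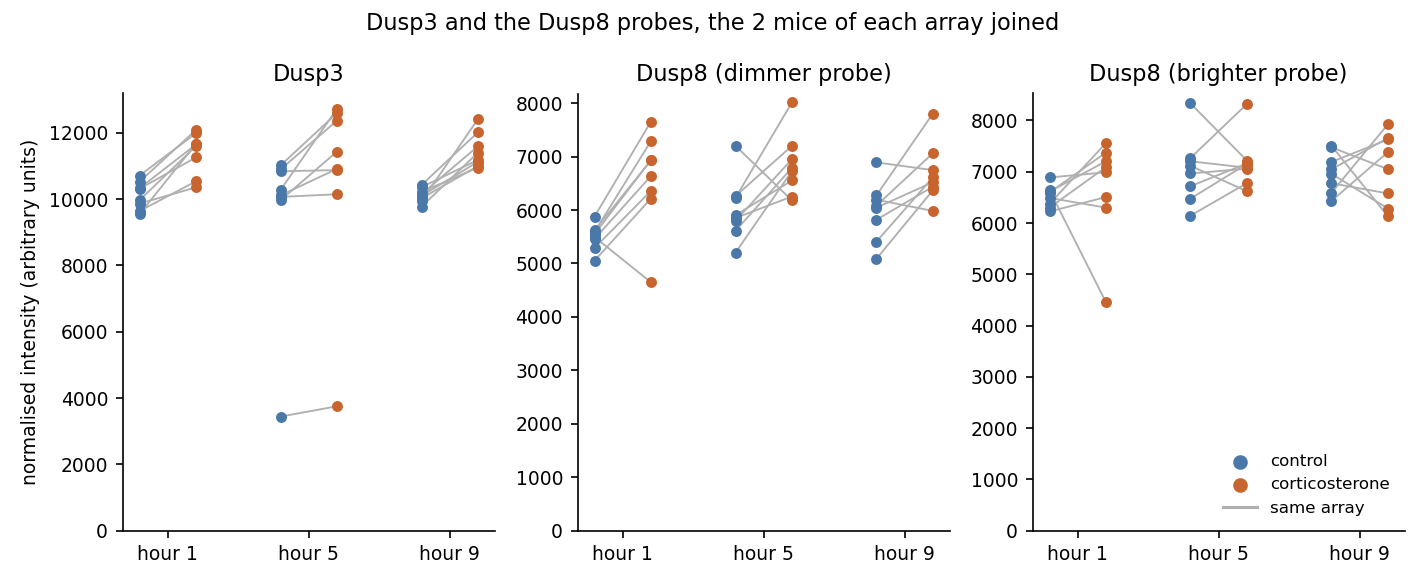
Normalised intensity (vertical axis, arbitrary units from 0) of Dusp3 and both Dusp8 probes in each mouse, with lines joining the control and the treated mouse of an array. The Dusp3 lines rise on 8 of 8 arrays at each hour, and 1 array of the fifth hour lies far below the others with 3442 and 3751; for Dusp8 1 treated mouse of the first hour is low with both probes.

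The change of the corticosterone effect between hours is free of a constant dye difference. Between the first and the last time point 0.829% of all probes, and 1.38% of those with a mean intensity of 50 or more, displayed a significant change. Of the 12 member probes 3 had an unadjusted p under 0.05, and 1 of 12 was significant. This was the brighter *Dusp14* probe, whose effect went from 0.17 to -0.11. The change was -0.28 ± 0.0675 (95% interval -0.41 to -0.14, adjusted p = 0.0128). Within slides 1, 2 and 3 it was -0.44, -0.04 and -0.37, and the call was lost without slide 1 (-0.21, adjusted p = 0.757) or slide 3 (-0.24, adjusted p = 0.234). The dimmer probe changed by -0.21 ± 0.0649 and missed the threshold (adjusted p = 0.105; slides -0.31, -0.05 and -0.24). For *Dusp5* the estimate was -0.39 ± 0.147 (adjusted p = 0.316; slides -0.62, -0.56 and -0.16), and it ran from -0.51 to -0.18 over 16 alternatives, with 3 of 8 control mice well above background at either hour. From the first to the fifth hour limma called 0 of 12 probes, with 2 at an unadjusted p under 0.05 and 0.0389% of all probes called. From the fifth to the ninth hour it called 0, with 0 at an unadjusted p under 0.05 and 0.0813% of all probes called.

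**Figure D3:**
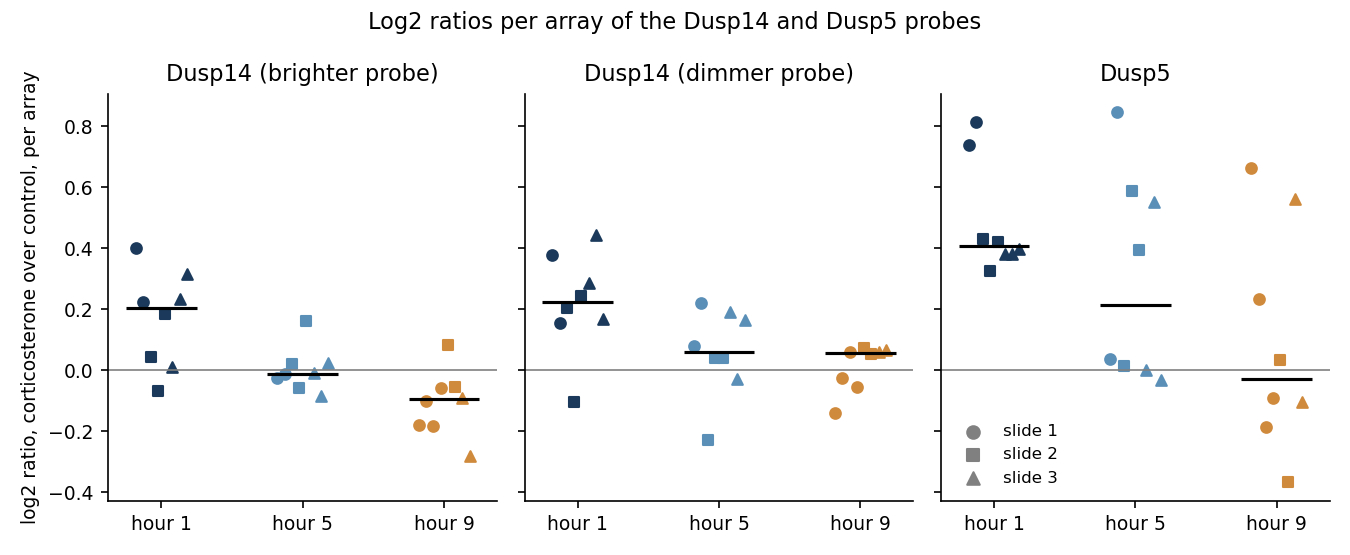
Log2 ratio of the treated over the control mouse per array (vertical axis) for both Dusp14 probes and Dusp5, with the slide as symbol and the median of 8 arrays as a bar. The brighter Dusp14 probe is above 0 on 7 of 8 arrays at the first hour and on 1 of 8 at the ninth; Dusp5 is above 0 on 8 of 8 and on 4 of 8.

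Levels were also compared between hours within each treatment. In corticosterone-treated mice 4 of 12 probes differed when the ninth hour was set against the first, compared with 3.93% of all probes. *Dusp5* decreased (log2 fold change -0.44 ± 0.122, adjusted p = 0.00836), and its median went from 48.0 to 37.4. The size was uncertain at this weak signal, from -0.22 with offset 50 for fold changes to -0.69 with processed signals. *Dusp1* decreased by 25.5% (-0.42 ± 0.110, adjusted p = 0.0117), from a median of 1672 to 1176. The brighter *Dusp14* probe decreased by 11.9% (-0.18 ± 0.056, adjusted p = 0.0337), whereas the dimmer one had -0.09 (adjusted p = 0.384). *Dusp16* was the one member called higher, by 17.6% (0.23 ± 0.0708, adjusted p = 0.0351), with 303, 369 and 427 at the first and 374, 419 and 470 at the ninth hour.

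The direction was the same within each of the 3 slides for these 4 probes. The slide means were -0.38, -0.79 and -0.37 for *Dusp5*, -0.25, -0.73 and -0.22 for *Dusp1*, -0.25, -0.09 and -0.22 for *Dusp14* and 0.11, 0.27 and 0.33 for *Dusp16*. The calls did not hold in every subset: that of *Dusp5* was lost without slide 2 or 3 or with processed signals, that of *Dusp1* without slide 1 or 2, and those of *Dusp14* and *Dusp16* without any 1 of the slides or with offset 0 for p-values. That of *Dusp14* was also lost with processed signals, and that of *Dusp16* with the channels of that dye alone. Without the first-hour array on which *Dusp8* was low, *Dusp14* and *Dusp16* were lost as well (adjusted p = 0.119 and 0.0782). Between the first and the fifth hour, 1 of 12 probes differed in treated mice, against 0.537% of all probes. This was *Dusp5* (-0.44, adjusted p = 0.0358), and the call was lost in 8 of 15 alternatives, among them each with a slide left out. Between the fifth and the ninth hour limma called 0 of 12, with 1 at an unadjusted p under 0.05 and 0.668% of all probes called.

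In control mice, the ninth hour set against the first gave 0 calls by limma among the 12 probes, 3 at an unadjusted p under 0.05 and 0.516% of all probes called. *Dusp1* had a log2 fold change of -0.33 ± 0.110 there (adjusted p = 0.19; slides -0.34, -0.47 and 0.02), and *Dusp5* had -0.05 (adjusted p = 0.872). The *Dusp14* probes had 0.09 and 0.12 (adjusted p = 0.577 and 0.428), opposite in sign to treated mice, and *Dusp16* had 0.07 (adjusted p = 0.782). The difference between treatments in this change is the change of the effect given above, and among these genes it passed the threshold for the brighter *Dusp14* probe alone. For *Dusp1* it was -0.10, with a 95% interval of -0.37 to 0.17. *Dusp6* had -0.29 in control and -0.32 in treated mice (adjusted p = 0.417 and 0.195). Without the low array described above both passed (adjusted p = 0.0297 and 0.0032). That array is of the fifth hour and holds no mouse of this comparison. The log2 fold changes without it were again -0.29 and -0.32, and it enters through the spread that the groups share. Between the first and the fifth hour limma called 0 in control mice, against 0.0053% of all probes. Between the fifth and the ninth it called 0, against 0.0318%. At an unadjusted p under 0.05, for which no share of all probes is given, there were 5 and 0 of the 12.

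**Figure D4:**
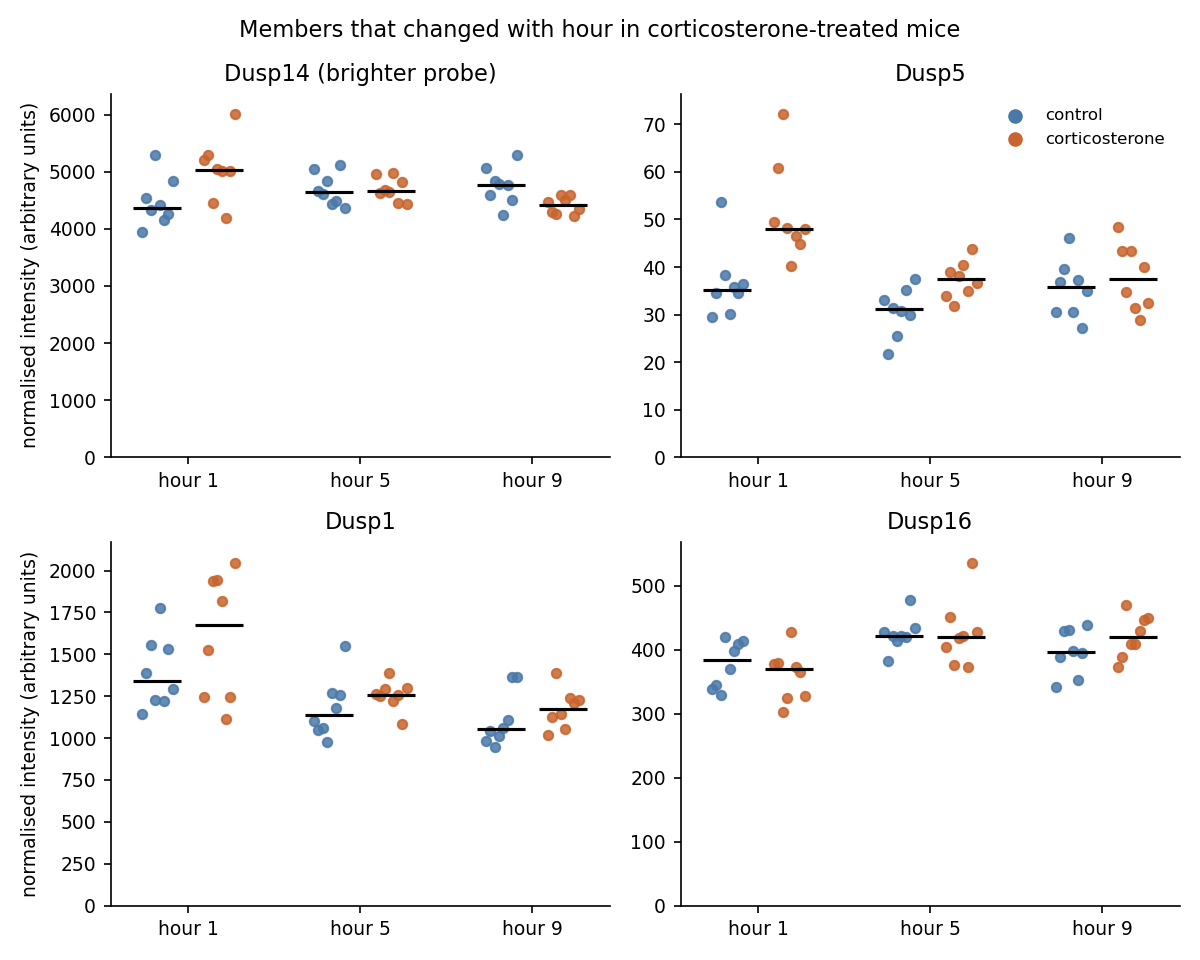
Normalised intensity (vertical axis, arbitrary units from 0) of the 4 members called in treated mice for the ninth against the first hour, with 1 point per mouse and the median of 8 as a bar. In treated mice Dusp14, Dusp5 and Dusp1 are higher at the first than at the ninth hour and Dusp16 is lower.

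The rest of the pathway was described by lists in which each gene stands by its brightest probe. Over all probes, 17.5, 18.1 and 13.9% were called at the 3 hours, with higher and lower calls about equally frequent at the first hour (8.79 and 8.74% of all probes). The counts that follow describe the lists beside these shares, and nothing is read from them as particular to a list. Of 15 other phosphatases and brakes of MAP kinases, 2 were higher and 2 lower in treated mice at the first hour. *Spred1* (0.15, adjusted p = 0.00807) and *Spry3* (0.19, adjusted p = 0.0308) were higher, and *Spry2* (-0.23, adjusted p = 0.0146) and *Pebp1* (-0.24, adjusted p = 0.021) were lower. These code for inhibitors of the Ras and Raf steps. Later, 2 were higher at the fifth hour, and at the ninth 2 were higher and 1 lower. Of 12 dual-specificity phosphatases that are not among the members, 1 was higher at the first hour (*Dusp28*, 0.13, adjusted p = 0.022), none at the fifth and 1 at the ninth.

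Of 19 genes of the ERK cascade, 3 were higher and 1 lower at the first hour. The adaptor *Grb2* (0.21, adjusted p = 7.44e-05), *Hras* (0.25, adjusted p = 8.93e-05) and the scaffold *Ksr1* (0.55, adjusted p = 0.000355) were higher, and the ERK-activated kinase *Rps6ka1* (-0.33, adjusted p = 3.85e-05) was lower. The counts were 6 higher and 3 lower at the fifth and 4 and 3 at the ninth hour. Of 23 genes of the JNK and p38 cascades, 4 were higher and 2 lower at the first, 3 and 2 at the fifth, and 3 and 4 at the ninth hour. *Mapkapk3*, a kinase downstream of p38, had the strongest decrease (-0.53, adjusted p = 1.98e-07), and *Map3k12* (0.24, adjusted p = 1.91e-06) and the JNK-activating *Map2k7* (0.22, adjusted p = 0.000357) were higher. Of 6 genes of ERK5 and atypical MAP kinases, 2, 2 and 4 were higher at the 3 hours and none was lower, among them *Mapk4* (0.45, adjusted p = 5.63e-08 at the first hour).

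Of 21 genes that MAP kinases induce, 4 were higher and 1 lower at the first, 6 and 1 at the fifth, and 5 and 0 at the ninth hour. *Srf*, which binds CArG boxes, was higher at the first hour by 0.35 (adjusted p = 8.24e-10), *Junb* by 0.38 (adjusted p = 0.000207) and *Arc* by 0.45 (adjusted p = 0.0107), while *Egr3* was lower (-0.18, adjusted p = 0.00825). In 11 known targets of the glucocorticoid receptor, 10 were higher at the first and 6 at the fifth hour, and 1 was higher and 7 lower at the ninth. Their median log2 fold change was 0.71, 0.20 and -0.27 at these hours, against the 0.06, 0.07 and 0.05 of the phosphatase genes. *Mt1* (1.18, adjusted p = 8.7e-22), *Mt2* (adjusted p = 5.79e-20), *Cdkn1a* (2.06, adjusted p = 2.9e-12) and *Sgk1* (0.71, adjusted p = 5.7e-11) had the smallest adjusted p at the first hour. Between the first and the last time point the effect changed significantly for 0.829% of all probes (0.572% downward). It decreased significantly for 11 of 11 targets and, by the brightest probes, for 1 of 10 phosphatase genes. Both lists were chosen with earlier results of these data known, so their counts and medians are a description only. The difference between the lists was not tested.

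**Figure D5:**
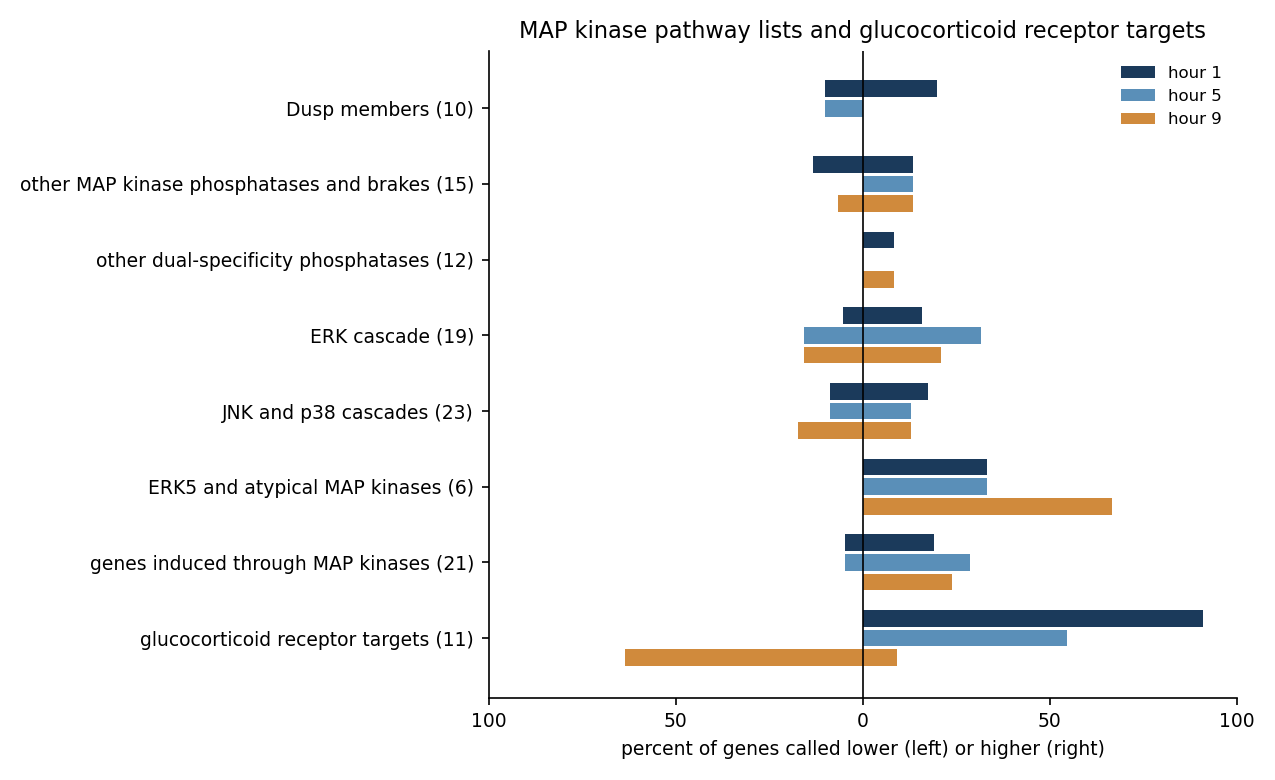
Percent of genes of each list called lower (to the left) or higher (to the right) in treated mice at each hour, with the number of genes in brackets and each gene by its brightest probe. The Dusp members have 2 higher and 1 lower of 10 at the first hour, and the glucocorticoid receptor targets have 10 higher of 11 at the first and 7 lower at the ninth.

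The probes whose log2 ratios followed a member most closely over the 24 arrays were sought for the 3 members called by their brightest probe at any hour. The points share hours, slides and array quality, and the correlations are given as a description. For *Dusp14* they were *Klf2* (Pearson r = 0.856), *Plcl1* (0.847) and *Ramp3* (0.832). *Klf2*, a transcription factor, had log2 fold changes of 0.33, -0.19 and -0.42 at the 3 hours, *Plcl1* had 0.17, -0.04 and -0.20, and *Ramp3* had 0.60, 0.36 and 0.02. For *Dusp5* they were *Tnfaip6* (0.769), *Gm13271* (0.730) and *Olfr1341* (0.670). Their log2 fold changes did not all run like those of *Dusp5*, which were positive: *Tnfaip6* had -0.04, -0.23 and -0.49, and *Olfr1341* had -0.14, -0.27 and -0.21, while *Gm13271* had 0.24, 0.08 and 0.06. For *Dusp7* they were *Eif4g2* (0.764), *Pheta1* (0.763) and *Scrt1* (0.675). *Eif4g2* had log2 fold changes of -0.07, -0.17 and -0.20 at the 3 hours. Those of *Pheta1* were -0.00, -0.04 and -0.01, and those of *Scrt1* were -0.01, -0.00 and 0.02.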

How the data were processed

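Hippocampal RNA of 48 mice was hybridised in pairs to 24 Agilent 2-colour arrays on 3 slides. The authors deposited, for each array, the scanner output with median intensity and local background per spot and channel and background-subtracted intensity, and a table of log2 ratios. Set against the log2 ratios computed here with offset 50, that table ran as Cy5 over Cy3 (lowest r over arrays 0.988). The median absolute difference was 0.0101, and the column medians of the table were 0.00239 to 0.00889. As an alternative, the authors' log2 ratios are therefore not independent of the fit here. Per the methods, the scanner software subtracted background and applied Lowess normalisation; whether the table is that output was not settled. All series columns were used (0 left out).

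Groups came from the sample labels. Median intensities were background-corrected (normexp, offset 50 for p-values and 0 for fold changes), normalised by loess within and quantile between arrays, and fitted with limma 3.58.1 in R 4.3.3 (separate-channel model with 6 groups, intraspot correlation 0.286). Adjusted p-values are Benjamini-Hochberg over 56605 probes, threshold 0.05, two-sided. Control spots and outlier-marked spots were left out. Printed intensities are on the scale with offset 0, and they are not compared between probes. Accessions gave a gene name to 34566 probes. The script was tested on simulated data. The number of arrays limits the precision. The p-values rest on the spread between mice within groups, shared by the 6 groups and moderated across probes. Per the methods each group held mice of several litters, and litter did not enter the model.

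The array joins a control and a treated mouse of the same hour and served as the block in an alternative. Replicate numbers follow sample order and pair nothing else. Other alternatives were offsets, background correction, scaling, filters, the slide as a block, single slides left out, and the authors' log2 ratios, and 2 alternatives (1 array left out each) were added after the data had been seen. All members are reported, each gene by its brightest probe and the other probe where its call differs. From each list at most 4 genes are named, those of the smallest adjusted p at the first hour with a mean intensity of 50 or more. Members, lists and motifs were chosen with earlier results of these data known.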

Additional observations from a re-analysis of the deposited data

Results flagged for a closer look

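In 10 of 72 groups of 8 mice (12 probes, 3 hours, 2 treatments), the most extreme mouse was separated from its neighbour by a larger share of the group's range than the 95% critical value of Dixon's test for 8 values, which chance alone exceeds in some groups. Of these, 5 are on the low fifth-hour array described above: the lowest *Dusp3* mouse (gap 0.914 of the range in control and 0.815 in treated mice), the lowest *Dusp6* mouse (0.696 and 0.773), and the treated mouse with the highest signal of the brighter *Dusp8* probe (0.622, with 8321 against 7219). The treated first-hour mouse with low *Dusp8* gave 0.582 with the dimmer and 0.655 with the brighter probe. A control mouse had high *Dusp5* at the first hour (0.560, with 53.6 against 38.4 in the next mouse), and a control mouse had low *Dusp10* at the fifth hour (0.572, with 50.1 against 64.8). A treated mouse had low *Dusp7* at the ninth hour (0.611, with 6306 against 6922).

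The effect of corticosterone on the brighter *Dusp14* probe at the ninth hour was set against that at the first, and the difference was -0.28 on the log2 scale in a test of the difference itself.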

How the results depend on the processing

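The number of significant members moved by more than 1.5 times as follows, and the cause was not tested. At the first hour (5) it was 3 without slide 2. At the fifth hour (2) it was 0 without slide 1, and 1 without slide 3, with the arrays of that hour alone or without replicate 7 of the fifth hour. At the ninth hour (0) it was 1 with Aquantile scaling, processed signals, the replicate block, the slide as a block, without slide 2, without slide 3 or without replicate 7 of the fifth hour, 2 with the authors' log2 ratios or without replicate 8 of the first hour, and 3 with the arrays of that hour alone. For the effect at the ninth against the first hour (1) it was 2 with processed signals or without slide 2, and 0 without slide 1 or slide 3. In control mice between these hours (0) it was 1 without slide 3 (*Dusp1*) and 1 without replicate 7 of the fifth hour (*Dusp6*). In treated mice (4) it was 2 with offset 0 for p-values, processed signals, without slide 3 or without replicate 8 of the first hour, 1 without slide 1 and 0 without slide 2. In treated mice between the first and the fifth hour (1) it was 0 with offset 0, median centring, processed signals, the intensity filter, the channels of that dye alone, without slide 1, 2 or 3, or without replicate 8 of the first hour. The other 165 counts stayed within 1.5 times. With the array as replicate block, the counts of the corticosterone effect were 6, 3 and 1 at the 3 hours, with *Dusp3* gained at each, and 1, 0 and 0 for its changes. No significant fold change turned its sign. Among the corticosterone effects that were not significant, several did in at least 1 alternative: the brighter *Dusp8* probe (-0.011 at the first hour without slide 1, and down to -0.03 and -0.05 at the later hours), *Dusp4* (up to 0.01 at the first hour), *Dusp16* (up to 0.00 at the first and 0.03 at the fifth), *Dusp1* and *Dusp6* (down to -0.04 and -0.05 at the ninth), *Dusp10* (down to -0.03 at the first and -0.06 at the ninth), and the *Dusp14* probes (down to -0.02 for the brighter at the fifth and -0.01 for the dimmer at the ninth). Small changes between hours that were not significant also changed sign.

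Among single probes, *Dusp5* kept its first-hour call in 16 of 16 alternatives, not counting the filter at a mean intensity of 50, which removed it, and the filter on spots well above background, which admitted it through the treated channels alone, with a log2 fold change from 0.22 to 0.72 there and of 0.21 with offset 50 for fold changes, and the dimmer *Dusp14* probe in 18 of 18. The brighter *Dusp14* probe kept its change in 15 of 17. Arrays without a dye swap, 3 slides and the weak *Dusp5* signal limit these results.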
